A study of Mus musculus with 6 samples.

Results

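Genes of ribosomal proteins were examined across 6 mouse arrays, separately for the cytosolic ribosome and for the mitochondrial ribosome. A gene was included when its symbol in the array annotation began with Rpl, Rps, Mrpl or Mrps followed by a digit, except Rps6k kinases. This gave 97 of 16675 annotated genes, of which 26 were cytosolic (17 Rpl and 9 Rps) and 71 mitochondrial (43 Mrpl and 28 Mrps). They were read by 118 probes. Where a gene had several, the probe with the highest mean log2 intensity over the 6 arrays stood for it. Coverage was uneven. Of the protein-coding genes that RefSeq (GRCm38.p6) lists under the same naming rule, 25 of 87 cytosolic ones (28.7%) and 70 of 78 mitochondrial ones (89.7%) were among the members.

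The mice were ob/ob mice of the strain B6.V-Lepob/J, which lack functional leptin and become obese and insulin resistant, so the controls carried the same mutation as the treated animals. They had been fasted for 4 h and were given by mouth either MCSE, the aqueous extract of seeds of Momordica charantia (bitter melon), or PBS, which is the vehicle control. Glucose (1 g/kg) was injected into the peritoneum 15 min later in both groups, and muscle, adipose tissue and liver were taken 4 h after the glucose. Total RNA was amplified, labelled with Cy5 and hybridised to 1 array for each combination of 3 tissue labels and 2 treatments. The labels gave neither the age of the mice nor the number of mice behind an array, and with 1 array per group no difference between MCSE and PBS could be tested.

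A ribosome is built from a large and a small subunit, each an assembly of RNA and many proteins. The cytosolic ribosome (Rpl proteins in the large subunit, Rps in the small) translates the messages of the nucleus, and its protein genes are among the most actively expressed genes of most cells. Their messages start with a run of pyrimidines through which mTOR, a kinase that responds to insulin and amino acids, controls their translation. The mitochondrial ribosome (Mrpl and Mrps proteins, all encoded in the nucleus) makes the few proteins of the respiratory chain that mitochondrial DNA encodes. Some members are paralogs with a restricted distribution. Rpl3l replaces Rpl3 in skeletal muscle and heart, Rpl39l is known as a testis form of Rpl39, and Rps27l is a paralog of Rps27 that p53 induces. A few members are not ribosomal subunits. Rps19bp1 is a protein that binds Rps19, Rps4y2 is the old symbol of the transcribed pseudogene Rps4l, and Mrpl48-ps is a pseudogene. Mrps36 is now regarded as a component of the 2-oxoglutarate dehydrogenase complex.

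Short motifs near the start of transcription were counted in the members. The RefSeq promoter table (GRCm38.p6) held 22 of the 26 cytosolic and 61 of the 71 mitochondrial members, and the first window listed for a gene was used, from 250 bases before to 50 after the annotated start. The motifs searched, by their letters and on both strands, were CTTTCC (a pyrimidine run), CCGGAAG (core letters bound by ETS factors) and TATAAA (the TATA box). Matches of the first and the second can share letters. CTTTCC was counted anywhere in the window and on either strand, so its share is not that of messages starting with a pyrimidine run. CTTTCC was present in 16 of 22 cytosolic windows (72.7%) and in 17 of 61 mitochondrial windows (27.9%), against 25.7% of 17491 protein-coding genes. CCGGAAG was present in 9 cytosolic windows (40.9%) and 20 mitochondrial windows (32.8%), against 11.9%. TATAAA was in 0 cytosolic and 4 mitochondrial windows (6.56%), against 13.3%. The shares are descriptions of these windows without a test. The 4 windows below run from 120 bases before to 20 bases after the start. They belong to 4 of the 9 members called as different between muscle and liver-labelled arrays. Matches to the motifs are in capitals. They are Rpl3l (chr17:24727706-24727845, plus strand), Rpl39l (chr16:10170108-10170247, plus strand), Rpl41 (chr10:128549149-128549288, minus strand) and Mrps6 (chr16:92058216-92058355, plus strand).
Rpl3l: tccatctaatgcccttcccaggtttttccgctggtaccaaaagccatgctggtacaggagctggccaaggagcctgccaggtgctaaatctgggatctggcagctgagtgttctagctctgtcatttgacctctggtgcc
Rpl39l: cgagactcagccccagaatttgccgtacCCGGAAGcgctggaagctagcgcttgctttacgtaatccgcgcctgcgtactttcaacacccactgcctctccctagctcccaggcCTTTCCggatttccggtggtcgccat
Rpl41: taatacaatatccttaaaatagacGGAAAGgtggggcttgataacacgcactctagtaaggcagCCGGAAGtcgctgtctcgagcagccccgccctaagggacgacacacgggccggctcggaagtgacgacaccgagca
Mrps6: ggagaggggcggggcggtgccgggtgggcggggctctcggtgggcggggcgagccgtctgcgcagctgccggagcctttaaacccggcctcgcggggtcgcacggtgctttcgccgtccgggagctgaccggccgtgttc
None of the motifs was found in the full windows of Rpl3l or Mrps6, whereas those of Rpl39l and Rpl41 held a CCGGAAG and a CTTTCC.

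The arrays did not all carry the genes of their labels, and in bulk RNA fewer cells of a type and less RNA per cell cannot be told apart. Fast-fibre markers such as Ckm had a median log2 intensity of 15.91 and 15.85 on the PBS and MCSE muscle arrays and at most 9.44 elsewhere. Adipocyte markers had medians of 15.04 to 15.45, hepatocyte markers 12.45 to 13.21 and kidney markers 12.47 to 14.33 on both liver-labelled arrays and the MCSE adipose array alike. The muscle arrays also carried adipocyte markers, with medians of 12.98 (PBS) and 12.94 (MCSE). Hepatocyte markers were at 9.57 and 8.68 there and kidney markers at 9.37 and 9.66. The MCSE adipose and MCSE liver arrays had a Pearson correlation of 0.982 over all probes, while the PBS adipose array correlated with the others at 0.307 to 0.517. On the PBS adipose array the adipocyte markers had a median of 9.67. "Liver" and "adipose" therefore name labels below. Between MCSE and PBS, the median of 5 slow-fibre markers was 11.92 on the PBS and 14.61 on the MCSE muscle array, and that of 5 kidney markers 12.47 on the PBS and 14.27 on the MCSE liver array. The erythroid marker Alas2 was at 11.89 with PBS and at the floor of 7.74 with MCSE under the liver label. In muscle 4 of 5 measured slow-fibre markers and 2 of 4 kidney markers (Kap 3.20 and Slc34a1 1.12) passed 2-fold upward with MCSE, and 1 of 4 hepatocyte markers (Alb -1.91) downward. Under the liver label 3 of 5 kidney markers, 1 of 5 adipocyte and 1 of 5 macrophage markers were higher, and 2 of 3 slow-fibre markers (Myl3, at -2.89, and Tnnc1) and 1 of 6 hepatocyte markers lower. The part of these markers in the values of the ribosomal genes was not tested.

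**Figure D1:**
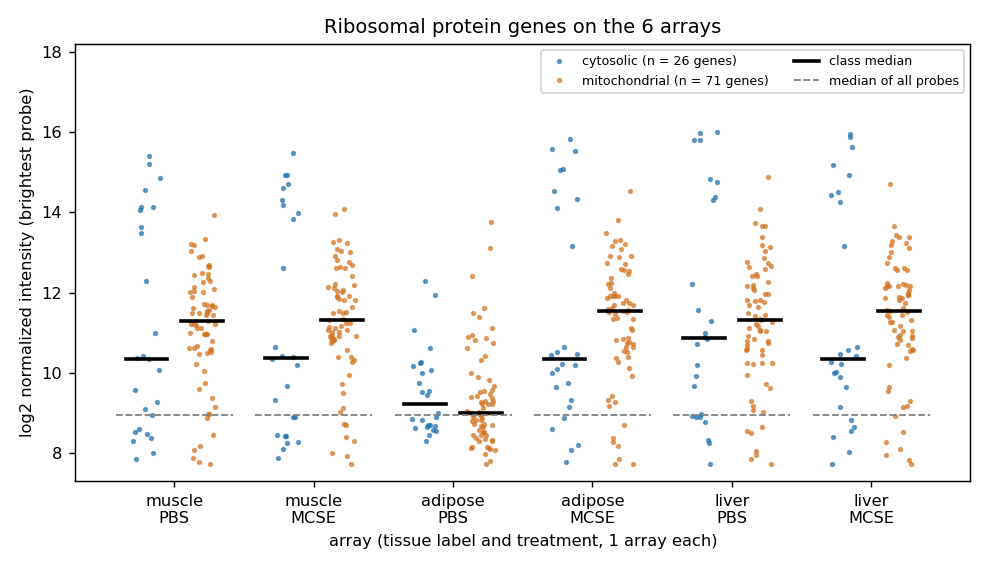
Log2 normalized intensity of the 26 cytosolic and 71 mitochondrial ribosomal genes on each of the 6 arrays, 1 point per gene (brightest probe), with class medians as black bars and the median of all probes as a dashed line. On the PBS adipose array both class medians lie near the dashed line, at 9.23 and 9.0, while on the other 5 arrays they lie between 10.34 and 11.56.

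The level of the mitochondrial class was alike on 5 of the arrays. Its median log2 intensity was 11.29 on the PBS muscle array, 11.32 on the MCSE muscle array, 11.56 on the MCSE adipose array, and 11.32 (PBS) and 11.55 (MCSE) under the liver label, and 57 to 59 of the 71 genes reached the upper quartile of all probes. The cytosolic class had medians of 10.36, 10.37, 10.34, 10.87 and 10.35 on the same arrays. Cytosolic probes spread widely in brightness. Rps9, Rpl23, Rps27 and Rpl41 were near the top of the scale, with means over the 6 arrays of 14.69, 14.60, 14.48 and 14.44, while Rpl37 (8.03), Rpl35 (8.12), Rpl14 (8.65) and Rps24 (8.65) had means below the median of all probes (8.95). Brightness also depends on the probe, so these levels do not rank the transcripts. The 3 probes of Rpl23, for example, gave 15.20, 10.28 and 8.76 on the PBS muscle array. In the mitochondrial class Mrpl52 (13.57), Mrpl20 (13.18) and Mrpl14 (12.85) among the Mrpl genes and Mrps18a (12.68) among the Mrps genes had the brightest probes. Mrps14 (7.80), Mrpl45 (7.91) and Mrpl48 (7.97) had the dimmest. In all, 10 members (Rpl14, Rpl21, Rpl35, Rpl37, Mrpl21, Mrpl32, Mrpl41, Mrpl45, Mrpl48 and Mrps14) did not reach the median of all probes on any muscle or liver array, and nothing can be said of them in those comparisons. Cytosolic ribosomal genes have many near-identical processed pseudogenes, so a probe can also read other copies.

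On the array labelled PBS adipose most ribosomal genes were lower than on the other arrays. Of the 97 members, 55 (all among 90 that reached the median of all probes on some array) lay at least 2-fold below the lowest of the other 5 arrays, against 19.6% of the 13862 genes that reached it. A gene must be bright elsewhere to lie that far below, so genes in the upper quartile on each of the other 5 arrays were counted as well. Of these, 10 of 11 cytosolic and 40 of 54 mitochondrial members were 2-fold below, against 55.6% of 3239 genes. Rps9, a small-subunit protein of the cytosolic ribosome, was at 10.01 on this array and between 15.41 and 15.88 on the others. Rps21, of the same subunit, was at 9.01 against 14.14 or more, and Mrps24, of the mitochondrial small subunit, at 8.80 against 12.91 or more. Rpl23 (10.26 against 14.94 or more) and Rps27l (8.56 against 13.48 or more) showed gaps of the same order. Between the 2 adipose arrays, 63 of 89 measured members passed 2-fold upward with MCSE and 4 downward, against 37.5% and 34.3% of all measured genes, and no more is drawn from that pair.

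A smaller set of members was brightest on the PBS adipose array. There were 13 such genes among the 97, 4 cytosolic and 9 mitochondrial, against 39.1% of all 16675 genes. Among the 90 members that reached the median of all probes on some array there were 10, against 39.3% of the 13862 genes that did. Rpl31, a large-subunit protein, was at 12.29 on it, against 10.37 and 10.35 on the PBS and MCSE muscle arrays, 9.76 (MCSE adipose) and 10.85 (PBS liver), with the MCSE liver array between these. Rpl38, also of the large subunit, was at 11.95 against 10.11 to 11.29, and its second probe at 12.28 against 9.21 to 10.38. Mrpl49 was at 12.42 against 11.21 to 11.63, and its second probe at 11.99 against 10.59 to 11.47. Mrps18a (13.13 against 11.82 to 13.04) and Mrps11 (11.62 against 10.71 to 11.14) exceeded the other arrays by less. On this array adipocyte markers had a median of 9.67, hepatocyte markers 8.61, fast-fibre markers 9.01, kidney markers 10.12 and slow-fibre markers 11.46. No tissue is assigned to it.

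MCSE was compared with PBS first on the muscle arrays, where 83 members were measured, meaning that their probe was no dimmer than the all-probe median on 1 or both of the pair. Few ribosomal genes passed 2-fold between these arrays, but the typical size of a difference was not below that of other genes. The median absolute difference was 0.32 for cytosolic and 0.28 for mitochondrial members, against 0.27 for all measured genes. Of the 19 measured cytosolic members, 0 passed 2-fold upward and 0 downward with MCSE. Of the 64 measured mitochondrial members, 1 was higher and 0 were lower. Over all 10711 measured genes, 3.9% were higher and 1.88% lower, so the ribosomal counts lie at or below the background. How far probes of a gene disagreed served to size the technical error of a difference. Over 1504 genes with several measured probes the SD per probe was 0.517, which holds no variation between mice. Over the 14 members with several measured probes it was 0.226. Below, the SD per probe is that over all genes, so values between the 2 figures lie beyond the members' own spread.

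The median difference in muscle was 0.06 for the cytosolic class, with 10 of 19 genes above 0 and a middle range (quartiles) from -0.17 to 0.34. For the mitochondrial class it was 0.15, with 45 of 64 genes above 0 and quartiles of -0.06 and 0.38. All measured genes had a median of -0.05, with 4783 of 10711 above 0. By subunit the medians were -0.02 for Rpl, 0.35 for Rps, 0.22 for Mrpl and 0.11 for Mrps. With 1 array a group, whether the classes differ from each other or from all genes was not tested. In the cytosolic class 18 of 19 genes, and in the mitochondrial class 49 of 64 (76.6%), differed by less than 0.5, compared with 76.8% of all measured genes. At 1.5-fold, 1 cytosolic and 3 mitochondrial members were higher, against 9.49% of all measured genes, and 0 and 2 lower, against 7.91%.

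Mrpl54, a protein of the mitochondrial large subunit, was the member past 2-fold in muscle. It was at 11.66 on the PBS and 12.78 on the MCSE muscle array, a difference of 1.12 read by a single probe. The MCSE value lay above those of the other 5 arrays, the highest of which was 12.56 on the MCSE adipose array. Mrpl14 (13.20 with PBS, 13.97 with MCSE, difference 0.77), Mrpl20 (12.67 and 13.32, 0.65), Mrpl12, which also binds the mitochondrial RNA polymerase (12.46 and 13.04, 0.58), and Mrpl17 (12.03 and 12.61, 0.58) followed. All of these exceeded the SD per probe but not 2-fold. At the lower end, Mrpl35 was at 11.22 with PBS and 10.33 with MCSE, a difference of -0.89. Its second probe, at 9.07 and 8.99 and so just above the median of all probes, gave -0.08. Mrpl36 was at 11.70 and 10.84 (-0.86) and Mrps31 at 12.36 and 11.83 (-0.53). Mrpl4 (-0.46) and Mrps2 (-0.40) were within the SD per probe. Of the members named whatever their value, Mrpl33 differed by 0.38, Mrps12 by -0.08 (second probe 0.23), Mrps18a by -0.12, Mrps18b by -0.15 and Mrps18c by 0.19.

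Among the cytosolic genes in muscle, Rps21 stood furthest from 0, at 14.14 with PBS and 14.93 with MCSE (0.78). Rpl41, the smallest of the ribosomal proteins, was at 14.14 and 14.61 (0.47). Its difference was within the SD per probe, which that of Rps21 exceeded. The others named by rule, Rps19bp1 (0.37), Rps27l (0.35), Rps3 (0.35), Rpl7l1 (0.34), Rpl28 (-0.19), Rpl23 (-0.26), Rpl22 (-0.35), Rps4y2 (-0.36) and Rpl3l (-0.38), were within that SD. The second probe of Rps3, a protein at the entry channel of the message, gave 0.47. Rps27, at -0.16, and its paralog Rps27l lay on opposite sides of 0, each within that SD. Rpl39l was not measured in muscle (8.47 and 8.10).

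On the liver-labelled arrays 86 members were measured. Of 21 cytosolic genes, 1 passed 2-fold upward with MCSE and 2 downward. Of 65 mitochondrial genes, 1 was higher and 1 lower. The background was larger than in muscle, with 8.27% of 11342 measured genes higher and 6.01% lower, and the SD per probe was 0.611 (1653 genes), or 0.508 over 12 members. The cytosolic class had a median difference of -0.05 with 10 of 21 genes above 0, and the mitochondrial class 0.13 with 40 of 65 above 0. All measured genes had a median of -0.02, with 5562 above 0. By subunit the medians were -0.20 for Rpl, 0.08 for Rps, 0.18 for Mrpl and 0.12 for Mrps. A difference under 0.5 was seen in 66.7% of cytosolic, 63.1% of mitochondrial and 54.0% of all measured genes. At 1.5-fold, 2 cytosolic and 16 mitochondrial members were higher, against 20.1% of all measured genes, and 4 and 6 lower, against 18.5%.

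Rpl39l had the largest difference of any member on the liver pair. It was at 11.58 with PBS and 9.64 with MCSE, a difference of -1.94. On the MCSE adipose array it was at 9.66, on the PBS adipose array at 8.44 and on the muscle arrays at 8.47 (PBS) and 8.10 (MCSE), so the PBS liver array was the highest and the MCSE liver and MCSE adipose arrays were alike. The Alas2 and kidney marker values above come from the same arrays. The gene was read by 1 probe. Rpl38 was at 11.29 with PBS and 10.28 with MCSE (-1.02), and its second probe gave -0.94. Rpl31 was at 10.85 with PBS, with a difference of -0.85, and Rps27 at 15.97 and 15.18 (-0.79). Rps27l (-0.26) and Rpl22 (-0.52) were within the SD per probe, and Rpl3l was not measured under this label.

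Rps4y2 was the cytosolic entry on the higher side, at 8.90 with PBS and 10.01 with MCSE (1.11). Its PBS value lay below the median of all probes. Rpl29, a large-subunit protein also known to bind heparin, was at 12.21 and 13.17 (0.97) and so just under 2-fold. Rps19bp1 (0.31), Rps19 (0.22) and Rpl7l1 (0.22) followed. Among the mitochondrial genes Mrpl36 was at 10.23 with PBS and 11.27 with MCSE (1.05). Mrps9 (0.96), Mrps16 (0.86), Mrpl3 (0.86) and Mrpl24 (0.83) lay below 2-fold on the same side. Mrpl35 was at 11.65 with PBS and 10.56 with MCSE (-1.09), and again its second probe, here dimmer than the all-probe median on both arrays, gave -0.04. Mrps6 was at 14.08 and 13.23 (-0.85), Mrps24 at 13.74 and 13.02 (-0.72), Mrpl18 at 10.91 and 10.20 (-0.71) and Mrpl38 at 12.58 and 11.90 (-0.68). The 3 Mrps18 paralogs differed by 0.75 (Mrps18a), -0.01 (Mrps18b) and -0.21 (Mrps18c). Mrpl12 (0.24), Mrpl33 (0.15) and Mrps12 (-0.60, second probe 0.03) were within the SD per probe.

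**Figure D2:**
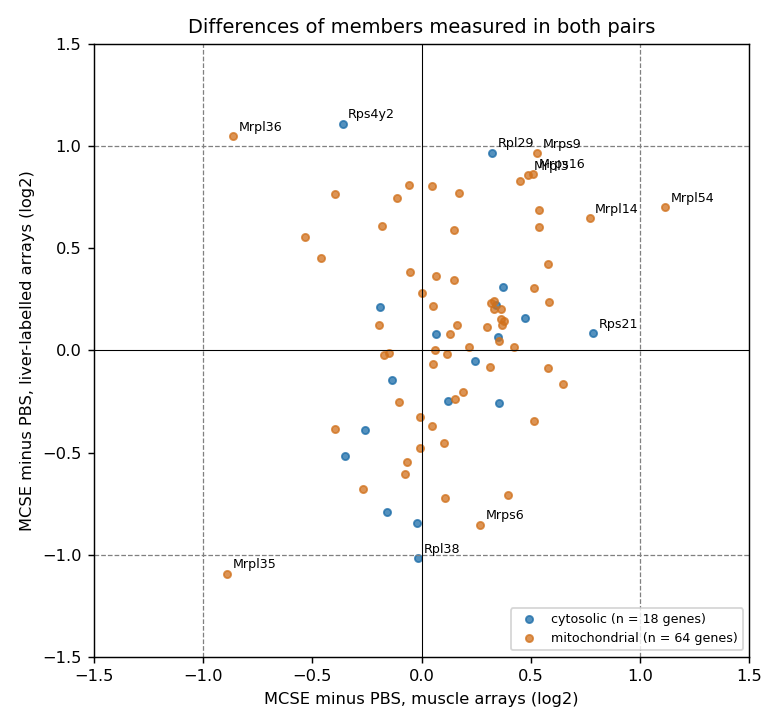
MCSE minus PBS (log2) on the muscle arrays against the same difference on the liver-labelled arrays, 1 point for each of 18 cytosolic and 64 mitochondrial members measured in both pairs, with dashed lines at 2-fold. Most points lie within 2-fold in both directions, and Mrpl35 is low in both pairs (-0.89 and -1.09) while Mrpl36 is low in muscle and high on the liver label (-0.86 and 1.05).

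The muscle and liver pairs share no array, so their differences can be set side by side. Whether the muscle and liver arrays of a treatment came from the same mice is not given, and all 6 arrays share a distribution. The same sign in both pairs is therefore not a replication. Of 64 mitochondrial members measured in both pairs, 31 were above 0 in both, 10 below 0 in both, 13 above in muscle and below on the liver label, and 9 the reverse, with the remaining 1 at exactly 0 in a pair. Of 18 cytosolic members the counts were 7, 6, 3 and 2. Across genes Pearson's r was 0.19 for the mitochondrial and 0.22 for the cytosolic class, against 0.27 for all 9578 genes measured in both pairs. These r values describe genes, which are not independent replicates, and each pair shares its arrays across all points. Mrpl35 had a negative difference in both pairs and Mrpl54 a positive one (1.12 and 0.70), while Mrpl36 had opposite signs.

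Probes of the same gene gave a further measure of how firm single values are. In the 20 members with 2 or more probes, measured or not, the brightest and second probe had the same sign in muscle in 14 and on the liver label in 9. The median gap between the 2 probes was 0.15 in muscle and 0.55 on the liver label. The largest gap in muscle was that of Mrpl35 (0.81). On the liver label it was that of Mrpl51 (1.41), whose brightest probe gave 0.34 and whose second probe gave -1.06. Both probes of Rpl4, a large-subunit protein, were close in both pairs, at -0.14 and -0.33 in muscle and -0.15 and -0.04 on the liver label.

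Muscle and liver-labelled arrays were next compared with limma, with the PBS and MCSE arrays of a label as its 2 samples, so that any effect of MCSE counts as spread. Of 12475 genes tested, 9.71% were called higher in muscle and 15.1% lower, where a call needed an adjusted p under 0.05 together with a 2-fold difference. Of 22 cytosolic members tested, 1 was higher and 4 were lower in muscle. Of 65 mitochondrial members, 0 were higher and 4 lower. An unadjusted p from limma under 0.05 was seen in 8 of 22 cytosolic (36.4%), 11 of 65 mitochondrial (16.9%) and 5218 of 12475 genes (41.8%). The median difference was -0.39 for cytosolic members, with 20 of 22 below 0, and -0.10 for mitochondrial members, with 36 of 65 below 0. For all genes tested it was -0.04. In the 20 members with 2 or more probes, measured or not, the brightest and second probe had the same sign of this difference in 13. The median gap between them was 0.58, and the largest was 1.68 (Rps19). Both muscle arrays lay below both liver arrays in 12 of 22 cytosolic members and 24 of 65 mitochondrial members, against 37.5% of all genes tested. Both lay above in 1 and 15, against 33.1%. These shares were not tested, and members such as Rpl3l and Rpl39l passed the filter on dim probes through the label where they were bright. In the same fit 7 of 7 fast-fibre markers tested were higher, and 4 of 5 adipocyte, 5 of 6 hepatocyte and 5 of 5 kidney markers lower in muscle. The other listed fast-fibre marker, Tnni2, was too dim to be tested (8.54 and 8.42 in muscle, 8.60 and 8.24 on the liver label). Markers such as Myh4 passed the filter through muscle, where they were bright. The part of the markers in the members' values was not tested.

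Rpl3l, the muscle paralog of a protein near the peptidyl transferase centre, had the largest difference. It was at 14.57 on the PBS and 14.19 on the MCSE muscle array. The other arrays were near the median of all probes, at 8.90 (PBS liver), 8.40 (MCSE liver), 8.20 (MCSE adipose) and 9.55 (PBS adipose), and did not overlap with muscle. The difference between muscle and liver label was 5.73 ± 0.32 (SE), with an adjusted p from limma of 3.7e-04. Both liver values lay below the median of all probes, where a difference is not firmly measured. With such values raised to that median, an alternative chosen after seeing the data and without a test, the difference was 5.43. This call held when all 6 arrays shared the spread (adjusted p from limma 0.032). With 1 of the 4 arrays left out, the difference ran from 5.5 to 6.0. Its full promoter window held none of the motifs searched, and neither did those of Rpl14, Rps3 and Rps24 among the cytosolic members. A link between motifs and level was not tested.

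The genes lower in muscle came from both ribosomes. Mrps6, of the mitochondrial small subunit, was at 10.98 (PBS) and 11.24 (MCSE) in muscle and at 14.08 and 13.23 on the liver label, with 13.17 on the MCSE adipose array. The difference was -2.55 ± 0.37 (SE) with an adjusted p from limma of 0.0062. Mrpl20, of the large subunit, was at 12.67 and 13.32 in muscle and 14.87 and 14.71 on the liver label (-1.80 ± 0.33, adjusted p from limma 0.013). Muscle and liver arrays did not overlap in either gene. Rpl41 was at 14.14 and 14.61 in muscle and 15.80 and 15.96 on the liver label (-1.51 ± 0.30, adjusted p from limma 0.017). Rps19, a small-subunit protein mutated in Diamond-Blackfan anaemia, was at 8.39 and 8.44 in muscle and 9.69 and 9.91 on the liver label (-1.39 ± 0.28). Its muscle values lay below the median of all probes. Raised to it, they gave a difference of -0.85, under 2-fold, and its second, dim probe gave 0.30, on the opposite side. Rpl27a (-1.15 ± 0.28), Mrps35 (-1.10 ± 0.29) and Mrpl40 (-1.02 ± 0.28) passed with smaller differences, and the second probe of Rpl27a gave -0.49.

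Rpl39l was called as well, with a difference of -2.32 ± 0.61 (SE) and an adjusted p from limma of 0.038. Both muscle values lay below the median of all probes, and raised to it they gave -1.66. With no filter on dim probes the call was lost (adjusted p from limma 0.14). Its 2 liver arrays were 11.58 and 9.64, and without the PBS liver array the difference was -1.36, over 1.5 times smaller. On the other side, Mrpl18 (1.07 ± 0.35, adjusted p from limma 0.068), Mrpl37 (0.95 ± 0.28), Mrpl55 (0.93 ± 0.34), Mrps28 (0.81 ± 0.36) and Mrpl51 (0.80 ± 0.29) had the highest values among mitochondrial members and did not pass. The 8 calls of lower genes rested on few arrays. Without the PBS muscle array their differences ran from -0.92 (Mrps35) to -2.51 (Rpl39l), and without the MCSE muscle array from -1.09 (Mrpl40) to -2.68 (Mrps6). Without the PBS liver array they ran from -0.90 (Mrpl40) to -2.12 (Mrps6), and without the MCSE liver array from -1.08 (Mrps35) to -3.29 (Rpl39l). These fits cannot decide a call, since 1 array in a label has no spread of its own. With the mean over probes 6 of the 8 were called, without Rpl27a (-0.82, adjusted p from limma 0.055) and Rps19, which no longer reached the filter, while Rpl23 (-1.19) was added. With all 6 arrays in the fit, 0 of the 8 were called, among 50 calls in all (0.361% of 13862 genes higher and 0% lower in muscle). The gap between the 2 adipose arrays entered the spread there.

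**Figure D3:**
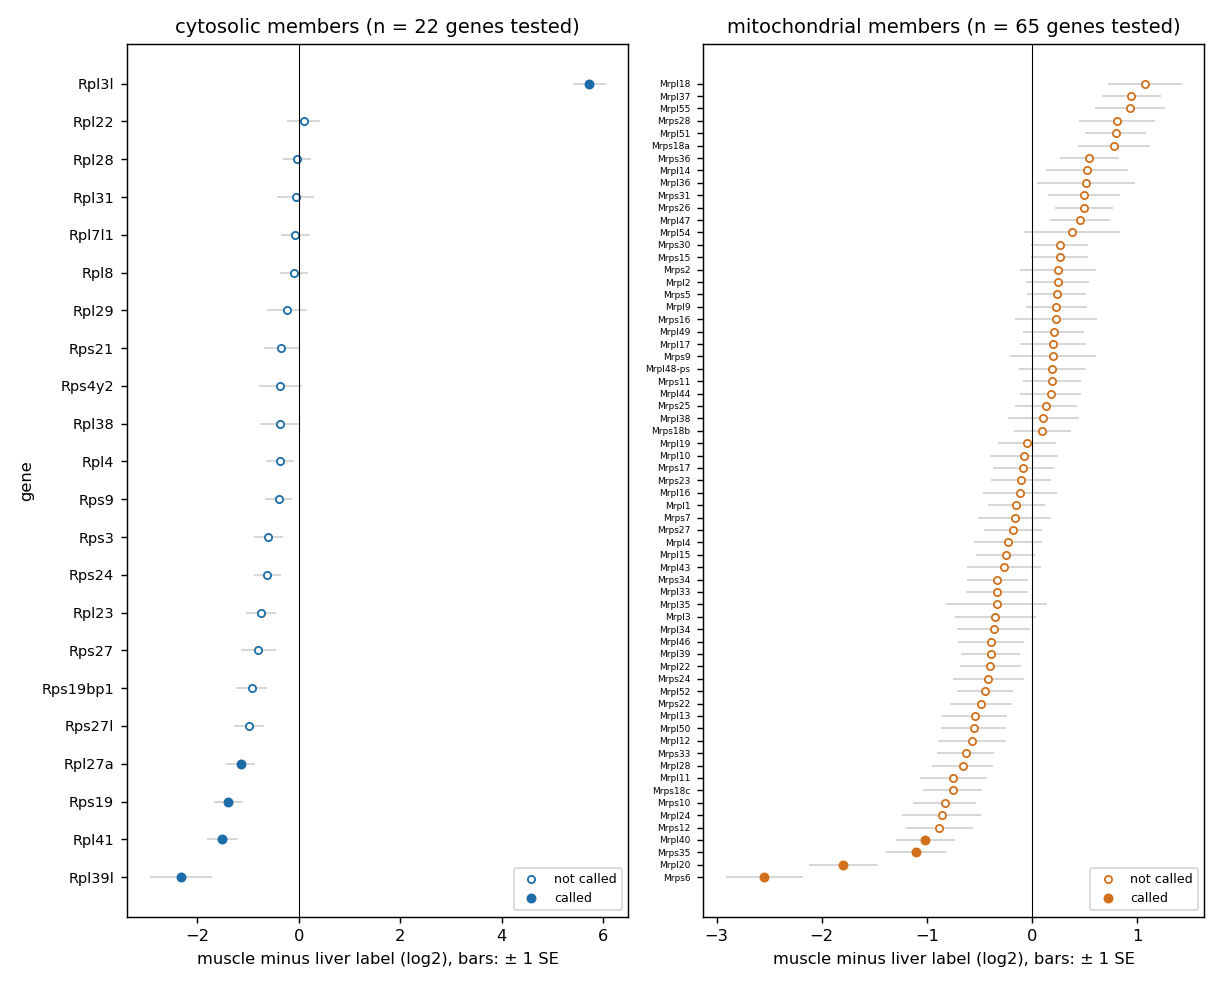
Muscle minus liver label (log2, mean of 2 arrays each, bars ± 1 SE from limma) for the 22 cytosolic and 65 mitochondrial members tested, with filled points for called genes (adjusted p under 0.05, 2-fold or more). Rpl3l stands alone at 5.73 on the right, and the called genes on the left run from -1.02 (Mrpl40) to -2.55 (Mrps6).

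**Figure D4:**
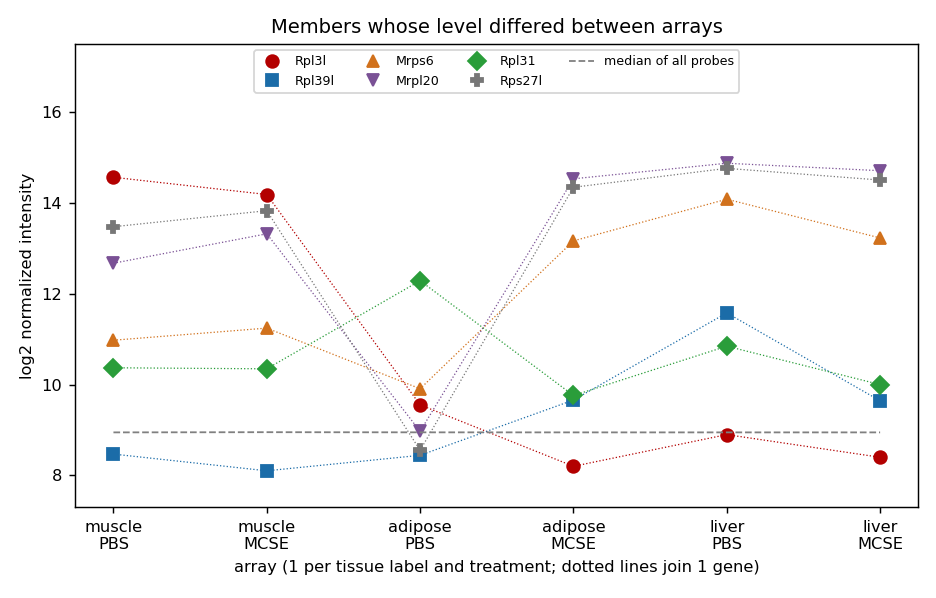
Log2 normalized intensity of 6 members on the 6 arrays, 1 point per array, with the median of all probes as a dashed line. Rpl3l is bright on the muscle arrays only (14.57 and 14.19), Rpl39l is highest on the PBS liver array (11.58), Rpl31 is highest on the PBS adipose array (12.29), and Mrpl20, Mrps6 and Rps27l are lowest on the PBS adipose array (8.97, 9.91 and 8.56).

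Other genes of the translation machinery gave a frame for these values. Of the ribosomal proteins outside the naming rule, 4 of 9 were found. Rplp0, of the ribosomal stalk, was at 11.55 and 12.04 in muscle and 10.67 and 10.89 on the liver label, so it differed by 0.50 and 0.22. Dap3, of the mitochondrial small subunit, differed by 0.04 and 0.15. Ptcd3 differed by -0.38 in muscle and was not measured on the liver label, and Rpsa was measured in neither pair. All of these differences lay within the SD per probe. Of 12 mitochondrial translation factors measured in muscle, 0 passed 2-fold either way, with a median of 0.07. On the liver label 1 of 11 was higher, the elongation factor Tufm (10.82 with PBS, 11.95 with MCSE, 1.13). Of 24 cytosolic initiation and elongation factors in muscle, 1 was 2-fold lower, the initiation scaffold Eif4g1 (-1.03). On the liver label 1 of 23 was higher, the elongation factor Eef2 (12.80 and 13.98, 1.18). Of the ribosome biogenesis genes, 0 of 25 passed in muscle and 2 of 23 were higher on the liver label, Pes1 (1.28), which matures large-subunit RNA, and Nop10 (1.05), of the box H/ACA particles. The median of the biogenesis list was -0.04 in muscle and 0.30 on the liver label.

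Between tissue labels the same lists held a gene like Rpl3l. Eef1a2, the elongation factor of muscle and neurons, was 6.05 ± 0.28 (SE) higher in muscle than on the liver label, with an adjusted p from limma of 3.0e-04. Both liver values of Eef1a2 (8.62 and 8.52) lay below the median of all probes, where a difference is not firmly measured. On the PBS adipose array it was at 11.86. It was 1 of 2 factors called higher, with Eef1g (1.12), while Eif4a1 (-1.47) and Pabpc1 (-1.15) were called lower among 24 tested. Gfm2 (1.64), which recycles mitochondrial ribosomes, was the single call among 12 mitochondrial factors. Among 25 biogenesis genes Ncl (1.77), the nucleolar protein nucleolin, was higher and Nhp2 (-1.55) lower. Of the ribosomal proteins outside the naming rule, Rplp0 (1.02), Ptcd3 (0.87) and Dap3 (-0.36) were tested and not called.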

How the data were processed

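The authors deposited probe intensities on a linear scale, already brought to a common distribution (medians of 8.95 on the log2 scale and equal maxima in all 6 columns). Per the submitters' processing notes limma was used, and its role, the background correction and the genome build are not given in the sources used here. A shared distribution hides any shift common to all genes. Intensities under 214.2, the 5th percentile, were set to that floor before log2, the brightest probe was kept per gene, and symbols came from the platform annotation (21020 of 29922 probes). The difference is MCSE minus PBS, counted from 2-fold. Muscle and liver labels were compared on the log2 scale in R 4.3.3 by limma 3.58.1 (lmFit, eBayes, 4 arrays, 2 residual degrees of freedom, Benjamini-Hochberg). The code was also run on simulated data with independent noise of the same size in every gene. Such a run cannot judge the p-values of these arrays. Labels do not say that samples are separate mice, so p-values measure the spread between these arrays, and their number limits the precision. Groups came from the titles. Named genes were all members past 2-fold, the 5 largest differences each way per class, a fixed set of 23 symbols of which 13 were members, the called members, the brightest and dimmest members, and list genes past 2-fold. Others (Rpl31 and the genes high on the PBS adipose array, Rps9 and the genes low on it, and uncalled members of the label comparison) were named after their values were seen. Members, lists and tests were chosen with earlier results of these data known. The markers printed come from the fixed marker lists. Python 3.11.15, pandas 2.3.3 and numpy 2.4.6 were used.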

Additional observations from a re-analysis of the deposited data

Results flagged for a closer look

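Mrpl36, of the large subunit of the mitochondrial ribosome, differed by -0.86 between MCSE and PBS in muscle and by 1.05 on the liver label. It drew attention because the 2 pairs moved in opposite directions, each by more than the SD per probe (0.517 and 0.611). The difference between the pairs was not tested, since each group had 1 array, and the gene was read by 1 probe.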

How the results depend on the processing

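Quantile normalization, centring on the median, no filter on dim probes, eBayes with trend, the mean over members and leaving out members at the 99th percentile moved no count by over 1.5 times and no class median by over the SD per probe. For single genes, counted as a gene under an alternative, 29 values of the label comparison were no longer called, 365 kept their call or, for MCSE minus PBS, moved by less than the SD per probe, 1 (Rps19, with dim values raised) fell under 2-fold and 0 reversed. With a 1.5-fold threshold the muscle counts were 1 cytosolic gene higher, 3 mitochondrial higher and 2 lower, against 9.49% of all measured genes higher and 7.91% lower. The liver-label counts were 2 cytosolic higher and 4 lower, 16 mitochondrial higher and 6 lower, against 20.1% higher and 18.5% lower. On the liver label the cytosolic counts were 2 higher and 1 lower after removing the lowess trend, 1 lower with the mean over probes (0 mitochondrial lower), 1 lower with 32 added before log2 and 0 higher with the upper quartile filter. Rpl38, at -1.02, lay close to the threshold. In the muscle and liver comparison, with all 6 arrays 0 cytosolic and 0 mitochondrial genes were lower. With treatment as a term 1 mitochondrial gene was higher (Mrpl18), and with the mean over probes 1 (Mrpl51), while 3 cytosolic genes were lower. Leaving out each of the 4 arrays gave 0 to 5 cytosolic and 0 to 5 mitochondrial genes lower, and 1 to 1 cytosolic and 0 to 1 mitochondrial higher. Why these counts moved was not tested. A fit with 1 array in a label assumes that it varies like the other pair. Muscle and liver arrays could not be paired by mouse because the labels give no replicate numbers. The titles tie muscle and liver arrays by treatment only, and with treatment as a term 8 of the 8 lower calls held. The number of arrays, 1 per group, limits every comparison of MCSE with PBS.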

Other observations

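Probes of 1 gene often disagreed on the PBS adipose array. In the 20 members with 2 or more probes, both of the brightest 2 probes lay at least 2-fold below the other 5 arrays in 6 genes, 1 of the 2 in 6 genes and neither in 8. For Mrpl51 the brightest probe was at 9.05 against 13.05 or more on the other arrays, and the second at 12.58 against 12.19 or less. For Mrpl1 the probes were at 8.36 (against 11.13 or more) and 10.73 (within the range of 10.22 to 11.06). For Rpl7l1, which takes part in large-subunit assembly, they were at 10.08 (close to the lowest other value of 10.08) and 8.26 (against 9.86 or more). Both probes of Rps3, of Rps9 and of Mrps10 were low together.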
